A study of Mus musculus with 6 samples.

Results

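The genes described here are the receptors through which the liver senses bile acids, oxysterols and foreign chemicals, together with the receptor pair for the gut hormone FGF15. They were taken from the raw count table by symbol, and all 10 of the listed symbols were found among its 40803 genes: Nr1h4 (FXR), Nr0b2 (SHP), Nr1i2 (PXR), Nr1i3 (CAR), Nr1h3 (LXRα), Nr1h2 (LXRβ), Rxra (RXRα), Ahr (AhR), Fgfr4 (FGFR4) and Klb (β-Klotho). The rule used the symbols alone, and the list of symbols was drawn up with earlier results of these data known. Liver RNA-seq libraries came from 6 male C57BL/6J mice, 3 in the rAAV8-Scramble group and 3 in the rAAV8-Hnf1aos1 group, with 1 library per mouse. Both groups were about 6 weeks of age when they received recombinant adeno-associated virus by tail vein, were fed normally, and were examined 4 weeks later. The virus had the liver-seeking serotype 8 capsid and carried an EGFP reporter in both groups. A U6 promoter, which is active in every transduced cell and is not specific to hepatocytes, drove a short hairpin RNA against the long noncoding RNA Hnf1aos1 or a scrambled hairpin. There was no uninjected group among the libraries, so every value compares 2 virus-treated groups. The comparison asks how these receptors are expressed when Hnf1aos1 is reduced.

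FXR is the bile acid sensor of hepatocytes and ileal cells: it induces SHP, a receptor-like protein with no DNA-binding domain that represses bile acid synthesis genes, and in the gut it induces FGF15, which reaches the liver and signals through FGFR4 with β-Klotho as its obligatory co-receptor. PXR and CAR are activated by drugs and other foreign chemicals and induce cytochromes P450, conjugating enzymes and transporters, while AhR, which belongs to the bHLH-PAS family and not to the nuclear receptors, does the same for planar aromatic compounds. LXRα and LXRβ respond to oxysterols and regulate cholesterol efflux and fatty acid synthesis genes. RXRα is the common dimer partner through which FXR, PXR, CAR and both LXRs bind DNA.

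The targeted RNA was read first. Hnf1aos1 had 512, 491 and 620 normalized counts in rAAV8-Scramble replicates 1, 2 and 3, and 278, 258 and 433 in the rAAV8-Hnf1aos1 replicates. All 3 libraries of the knockdown group lay below all 3 controls, and replicate 3 was the least reduced. The log2 fold change was -0.74 (SE 0.195, n = 3 per group), which is 59.8% of the scramble level, and edgeR's quasi-likelihood test gave a Benjamini-Hochberg adjusted p of 0.0625, just past the threshold of 0.05 used for all calls. DESeq2 gave an adjusted p of 0.00294. The exact permutation test gave p = 0.1, the smallest value that 3 against 3 allows.

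Libraries held 14704746 to 16532510 gene counts in the rAAV8-Scramble group and 18021614 to 19462398 in the rAAV8-Hnf1aos1 group. Across the 16327 genes that passed the low-count filter, 1032 passed edgeR's test, 505 higher and 527 lower. Hepatocyte markers were present at high levels, with summed normalized counts of 1267893 to 1435609 in scramble and 1350392 to 1607114 in knockdown livers. Of the 5 measured, 4 were above 0 on the log2 fold change scale, and the median was 0.12. By edgeR 1 fell, the tyrosine aminotransferase gene Tat (log2 fold change -0.72), and 0 rose. DESeq2 called 2 higher and 1 lower. Markers of other cells were much lower. The Kupffer cell markers stood apart from the controls: all 6 were higher in all 3 knockdown libraries, as were 15.2% of all genes tested. By edgeR 2 of 6 passed the test (Clec4f and Adgre1), where 3.09% of all genes were called higher, and DESeq2 called 3 higher. Their sum went from 2114 to 2574 counts in scramble to 2809 to 3702 in knockdown libraries. Of 6 cholangiocyte markers 4 were tested and 0 passed, at summed counts of 581 to 690 in scramble and 837 to 2548 in knockdown libraries. In the endothelial, stellate, neutrophil and lymphocyte lists 0 genes passed by edgeR or DESeq2, with 1 (a stellate marker) at an unadjusted p under 0.05. Only 1 of the 5 neutrophil markers had enough counts to be tested. The summed counts of that list were low, 45.0 to 67.1 in scramble and 73.4 to 101 in knockdown libraries, without overlap. The 14 acute phase genes were all above 0 on the log2 fold change scale, with a median of 1.43. By edgeR 4 of 14 passed the test (Fga, Fgb, Fgg and Hpx), where 3.09% of all genes were called higher. DESeq2 called 13 of 14 higher, where it called 7.8% of all genes in either direction. Summed counts were 214975 to 232796 in scramble against 315729 to 570177 in knockdown libraries. Those shifts accompany every difference below, and their part in the results was not tested. In bulk liver RNA, fewer cells expressing a gene and less RNA per cell cannot be told apart.

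Of the 10 genes, 2 fell and 0 rose by edgeR's test (adjusted p under 0.05), where 3.23% of all genes tested were called lower and 3.09% higher. The 2 that fell were Nr1i3, the CAR gene, and Klb, the gene for β-Klotho. At an unadjusted p under 0.05 there were 5 (23.4% of all genes tested), the other three being Nr1i2, Rxra and Ahr. DESeq2 called 5 of the 10, 1 higher (Rxra) and 4 lower (Nr0b2, Nr1i2, Nr1i3 and Klb), where it called 7.8% of all genes. The median log2 fold change of the 10 was -0.18, against 0.00 over all genes tested. With library sizes taken from the spike-ins, which raised the median of all genes by 0.20, the members' median was 0.02, and in both scalings 6 of the 10 lay below the median of all genes. Normalized counts of the groups did not overlap for 6 of the 10 genes, 4 lower in knockdown (Nr1i2, Nr1i3, Ahr and Klb) and 2 higher (Nr1h3 and Rxra), where 28.9% of all genes did not overlap.

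**Figure D1:**
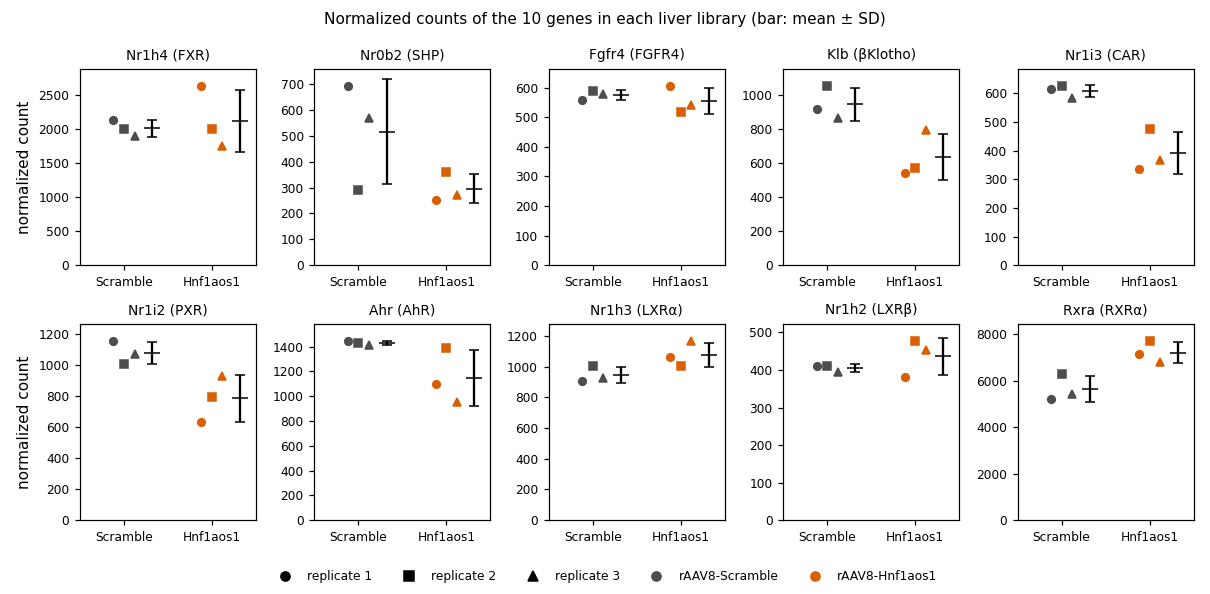
Normalized count (y axis, from 0) of each of the 10 genes in every liver library, with marker shape for the replicate number and the mean ± SD of 3 libraries beside each group. The scramble range of Nr1i3 was 584 to 623 and its knockdown range 335 to 475. Those of Klb were 866 to 1053 and 545 to 795, while Fgfr4 and Nr1h4 overlapped between groups.

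Promoter windows are shown for the 2 genes that fell, Nr1i3 and Klb, and for Nr1h4 and Rxra, which held the only matches to the nuclear receptor half-site. The RefSeq table of GRCm38.p6 gave 11 windows of 300 bases (250 before to 50 after the start site) for 9 of the 10 genes, and none was matched for Ahr. Each is written 5′ to 3′ on the strand of the gene, and capitals mark any match, on either strand, to 3 sets of letters: AGGTCA (the half-site that nuclear receptors bind), GCGTG (the core to which AhR binds) and TTCNNNGAA (the STAT palindrome).
Nr1i3, chr1:171213720-171214019, plus strand: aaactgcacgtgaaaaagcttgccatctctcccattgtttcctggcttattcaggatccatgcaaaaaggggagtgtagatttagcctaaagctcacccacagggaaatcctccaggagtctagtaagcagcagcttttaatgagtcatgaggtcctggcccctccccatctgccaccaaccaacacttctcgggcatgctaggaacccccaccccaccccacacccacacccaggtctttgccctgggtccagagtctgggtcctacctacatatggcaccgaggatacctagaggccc
Klb, chr5:65348161-65348460, plus strand: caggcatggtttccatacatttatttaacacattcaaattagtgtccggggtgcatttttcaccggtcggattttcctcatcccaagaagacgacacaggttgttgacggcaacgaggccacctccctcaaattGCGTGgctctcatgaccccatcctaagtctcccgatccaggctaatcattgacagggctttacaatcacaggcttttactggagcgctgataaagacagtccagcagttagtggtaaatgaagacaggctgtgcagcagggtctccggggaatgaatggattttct
Nr1h4, chr10:89506609-89506908, minus strand: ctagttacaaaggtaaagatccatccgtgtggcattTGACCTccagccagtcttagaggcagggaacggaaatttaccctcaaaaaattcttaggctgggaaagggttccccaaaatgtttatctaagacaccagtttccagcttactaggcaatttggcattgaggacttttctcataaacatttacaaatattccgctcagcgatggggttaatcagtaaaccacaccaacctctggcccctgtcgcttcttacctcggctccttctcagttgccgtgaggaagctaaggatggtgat
Rxra, second start site, chr2:27709042-27709341, plus strand: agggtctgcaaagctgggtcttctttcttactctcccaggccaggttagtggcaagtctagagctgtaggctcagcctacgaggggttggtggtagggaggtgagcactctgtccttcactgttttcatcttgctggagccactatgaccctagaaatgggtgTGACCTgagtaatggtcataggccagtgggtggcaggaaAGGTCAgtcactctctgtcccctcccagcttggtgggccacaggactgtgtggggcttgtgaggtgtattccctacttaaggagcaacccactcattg

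The CAR window held none of the 3 sets of letters, and the Klb window held only a GCGTG core at -116 from the start site. Nr1h4 held an AGGTCA half-site at -214. The RefSeq start site of that window lies inside the GENCODE M21 span of Nr1h4 (chr10:89454234-89533585), not at its upstream end. The second Rxra window held 2 AGGTCA half-sites at -87 and -48. Nr0b2 held a GCGTG core at -137 and a STAT palindrome at -91, and Fgfr4 held GCGTG at -93 and -17. Windows of Nr1i2, Nr1h3, Nr1h2 and the first Rxra start held no match. Among 32851 mouse promoter windows of the same length, 16.3% held AGGTCA, 32.4% GCGTG and 8.3% TTCNNNGAA, so matches in these windows are a description of the letters and not of bound sites.

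In the FXR and SHP branch neither gene passed the main test. Nr1h4 had 2134, 1999 and 1888 normalized counts in scramble and 2622, 1991 and 1744 in knockdown livers, and the knockdown group reached both above and below the controls. Its log2 fold change was 0.08 (SE 0.137, adjusted p = 0.780 by edgeR), with a 95% interval of -0.23 to 0.38, or 85.5% to 130% of the scramble level. Nr0b2 had 692, 292 and 568 normalized counts in scramble and 254, 360 and 273 in knockdown livers. The scramble replicate 2 sat within the knockdown range, and the coefficient of variation of Nr0b2 in the scramble group, 39.6%, was the highest of the 10 genes there. At -0.81 (SE 0.343) its log2 fold change was the largest in size among the 10 genes, but its interval ran from -1.67 to 0.05 and the adjusted p was 0.237 by edgeR. DESeq2 gave an adjusted p of 0.0141, and leaving out scramble replicate 2 gave a log2 fold change of -1.10 with an adjusted p of 0.0129 by edgeR, so the call moved with both the test and that library. The TPM ratio of Nr0b2 to Nr1h4 was 0.656, 0.296 and 0.609 in scramble and 0.196, 0.366 and 0.317 in knockdown livers, which overlapped, with a difference of -0.79 on log2 counts (SE 0.457, exact permutation p = 0.3, adjusted p = 0.5 over the 4 ratios).

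Genes below FXR and SHP were counted next. Of 7 genes that FXR induces in liver, 5 passed the count filter and 0 passed the test by edgeR or by DESeq2, with 0 at an unadjusted p under 0.05 and log2 fold changes from -0.23 to 0.23. With library sizes from the spike-ins, which shift all genes upward, 2 of them were called higher. Abcb11, the bile salt export pump, had 17477, 16955 and 15713 normalized counts in scramble against 14901, 14608 and 15501 in knockdown livers, a log2 fold change of -0.16 (SE 0.0978, adjusted p = 0.363 by edgeR, interval -0.37 to 0.06). Among 10 genes of bile acid synthesis and uptake, 1 rose and 0 fell, and the median log2 fold change was -0.06.

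The gene that rose was Cyp7b1, the oxysterol 7α-hydroxylase of the acidic pathway of bile acid synthesis. It had 3550, 3531 and 2861 normalized counts in scramble and 7542, 7599 and 6050 in knockdown livers, with every knockdown library above every control. The log2 fold change was 1.09 (SE 0.124, adjusted p = 0.00154 by edgeR), and it passed the test under all 15 alternative settings. Cyp7b1 is among the hepatic regulators that the study picked from these libraries, so its direction here is not independent evidence. By proteomics the paper also reports its protein as higher. Cyp7a1, the rate-limiting enzyme of the classical pathway, had 3856, 4134 and 2250 normalized counts in scramble against 6558, 3539 and 2409 in knockdown livers. Its groups overlapped, and its log2 fold change of 0.29 had an interval from -0.94 to 1.52 (adjusted p = 0.770 by edgeR). At the protein level the paper reports a very large decrease by proteomics, and cautions about the size of that change. Cyp8b1, which sets the share of cholic acid, had a log2 fold change of -0.12 (SE 0.160, adjusted p = 0.713 by edgeR).

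For the FGF15 receptor pair, Klb passed the test and Fgfr4 did not. Klb, whose product gives FGFR4 its affinity for FGF15, had 922, 1053 and 866 normalized counts in scramble and 545, 573 and 795 in knockdown livers. All 3 knockdown libraries lay below the controls. The log2 fold change was -0.57 (SE 0.144, adjusted p = 0.0450 by edgeR), or 67.4% of the scramble level with a 95% interval of 54% to 84.1%. Fgfr4, the receptor tyrosine kinase itself, had 559, 591 and 577 normalized counts in scramble and 605, 518 and 543 in knockdown livers. Its groups overlapped, and the log2 fold change of -0.05 (SE 0.0936, adjusted p = 0.781 by edgeR) had an interval of -0.26 to 0.15.

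The Klb call was close to the threshold and held in 8 of 15 alternatives. It was lost with the replicate number as a block (adjusted p = 0.0746 by edgeR) and with library sizes from the spike-ins (adjusted p = 0.127 by edgeR). Leaving out 1 library gave an adjusted p by edgeR of 0.0936 without scramble replicate 1, 0.129 without scramble replicate 2, 0.127 without scramble replicate 3, 0.108 without knockdown replicate 1 and 0.151 without knockdown replicate 2, so the call was lost in 5 of 6 cases. Without knockdown replicate 3 the log2 fold change was -0.76 and the adjusted p 0.000766. The direction was lower in all 15 alternatives, with log2 fold changes from -0.76 to -0.37.

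The difference between the partners was tested as a ratio within each library. The TPM ratio of Klb to Fgfr4 was 0.866, 0.935 and 0.787 in scramble and 0.473, 0.581 and 0.769 in knockdown livers, and the groups did not overlap. On log2 counts the ratio differed by -0.53 between groups (SE 0.216), with p = 0.1 in a two-sided exact permutation test, the smallest that 3 against 3 allows, and 0.4 after Benjamini-Hochberg adjustment over the 4 ratios tested. Unequal change of Klb and Fgfr4 was thus not established by a test that could reach the threshold. Of 17 other FGF receptor and signalling genes, 15 were tested and 0 passed the test by edgeR or by DESeq2, with a median log2 fold change of 0.00. At an unadjusted p under 0.05 by edgeR there were 3, where 23.4% of all genes tested had such a p. With library sizes from the spike-ins 2 were called higher, and without knockdown replicate 3 there were 3 called lower. Fgf15 itself, which is made in the ileum, had no read in any of the 6 liver libraries, which allows up to 3 counts in each.

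Among the xenobiotic receptors, Nr1i3 fell. CAR normalized counts were 616, 623 and 584 in scramble and 335, 475 and 368 in knockdown livers, and the lowest control was 109 counts above the highest knockdown library. The Nr1i3 count differed by a log2 fold change of -0.63 (SE 0.126, adjusted p = 0.0172 by edgeR), or 64.6% of the scramble level with a 95% interval of 53.4% to 78.2%. It passed the test in 13 of 15 alternatives and was lower in all 15. The call was lost without scramble replicate 2 (adjusted p = 0.0554) and without scramble replicate 3 (adjusted p = 0.0846), while the log2 fold change stayed between -0.79 and -0.54 whichever library was left out. CAR and PXR are also among the regulators that the study chose to display from these libraries.

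Nr1i3 cannot be read without its neighbour. On GRCm38, GENCODE M21 places Nr1i3 at chr1:171213970-171220701 on the plus strand, and 3304 of its 4414 exon bases (74.9%) are shared with exons of Tomm40l, a mitochondrial import pore gene on the minus strand. RefSeq for GRCm38.p6 has a shorter Nr1i3 that ends at 171218845, with 1044 bases of overlap with the span of Tomm40l, which starts at 171217802. The ratio of counts to TPM gave Nr1i3 a length of 0.494 of its GENCODE exon bases on the scale of the other members, which is also shorter than in GENCODE. Tomm40l, which was looked at after the overlap was seen, had 1463, 1758 and 1561 normalized counts in scramble and 716, 919 and 749 in knockdown livers. It fell by 1.00 on the log2 scale (SE 0.114, adjusted p = 0.00154 by edgeR) and passed the test in all 15 alternatives. The mean of Tomm40l fell by 799 normalized counts and that of Nr1i3 fell by 215. The library kit named in the methods is stranded, but the strand setting of the counting is not given in the sources used here, and without strand the reads of the 2 genes in the shared bases cannot be told apart, so the part of Tomm40l in the CAR value was not tested.

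**Figure D2:**
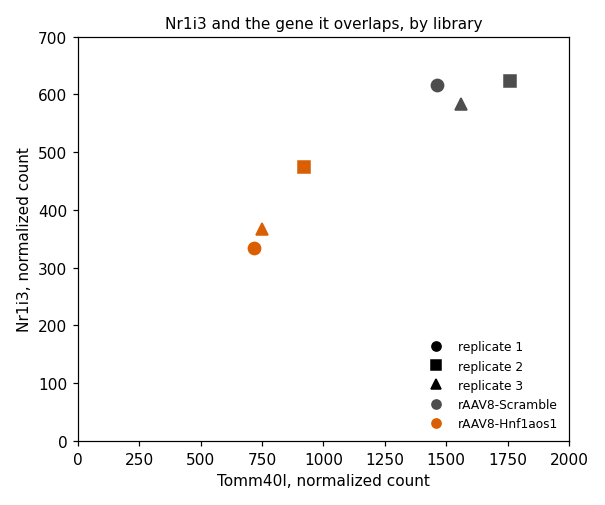
Normalized count of Nr1i3 (y axis) against that of Tomm40l (x axis), the gene on the opposite strand with which it shares exon bases, with 1 point per liver library and both axes from 0. The 3 scramble libraries sit at 1463 to 1758 for Tomm40l and 584 to 623 for Nr1i3, and the 3 knockdown libraries at 716 to 919 and 335 to 475.

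PXR counts were lower in the same direction but did not pass the main test. Nr1i2 had 1149, 1004 and 1069 normalized counts in scramble and 629, 793 and 928 in knockdown livers, without overlap. Nr1i2 had a log2 fold change of -0.46 (SE 0.130, adjusted p = 0.0647 by edgeR) with an interval of -0.74 to -0.17. It was called in 4 of 15 alternatives, which were DESeq2 (adjusted p = 0.0324), library totals, no filter on low counts, and the fit without knockdown replicate 3 (adjusted p = 0.00634). The TPM ratio of CAR to PXR was 0.627, 0.727 and 0.640 in scramble and 0.623, 0.702 and 0.464 in knockdown livers, and the difference of the log2 count ratios was -0.17 (SE 0.190, exact permutation p = 0.4).

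Ahr was tight in the controls and scattered in the knockdown group. It had 1442, 1430 and 1410 normalized counts in scramble, a coefficient of variation of 1.12%, and 1097, 1390 and 954 in knockdown livers, a coefficient of variation of 19.4%. The groups did not overlap, although knockdown replicate 2 lay 19.7 counts under the lowest control. The log2 fold change was -0.32 (SE 0.124, adjusted p = 0.152 by edgeR, interval -0.59 to -0.04), and 1 of 15 alternatives called it.

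Genes that the xenobiotic receptors induce gave the following counts. Over all genes tested, 6.32% passed edgeR's test and 23.4% had an unadjusted p under 0.05. Of 13 CAR targets, 11 were tested and 0 passed the test by edgeR or DESeq2, with 4 at an unadjusted p under 0.05 and a median log2 fold change of -0.21. With library sizes from the spike-ins their median was -0.0074. In both scalings 8 of the 11 lay below the median of all genes. Cyp2b10, the classical CAR target, had 30, 78 and 45 normalized counts in scramble and 90, 118 and 72 in knockdown livers. These are low levels, the groups overlapped, and the log2 fold change of 0.88 (SE 0.325, adjusted p = 0.140 by edgeR) had an interval from 0.15 to 1.60. Of the 11 CAR targets tested, Cyp2b10 was among 3 above 0, and 8 were below 0.

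Of 10 PXR targets, 8 were tested, 0 rose and 1 fell, with 4 at an unadjusted p under 0.05 and a median log2 fold change of -0.35. With library sizes from the spike-ins the median was -0.15, and 1 PXR target was called higher and 0 lower. In both scalings 6 of the 8 lay below the median of all genes. The gene that fell in the main test was Abcc2, the canalicular exporter of conjugated bilirubin and drugs, with 15570, 13989 and 14395 normalized counts in scramble and 9472, 10163 and 12032 in knockdown livers. Its log2 fold change was -0.47 (SE 0.114, adjusted p = 0.0353 by edgeR), and the call held in 1 of 6 fits with a library left out, where the adjusted p ran from 0.00634 to 0.131. Cyp3a11, the main PXR-induced cytochrome P450 of mouse liver, had 99135, 91490 and 79932 normalized counts in scramble and 64097, 82727 and 66369 in knockdown livers, which overlapped, with a log2 fold change of -0.34 (SE 0.135, adjusted p = 0.151 by edgeR).

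Of 9 AhR targets, 7 were tested and 0 passed the test by edgeR or DESeq2, with 2 at an unadjusted p under 0.05. Cyp1a2, the constitutive hepatic AhR target, had a log2 fold change of 0.11 (SE 0.110, adjusted p = 0.585 by edgeR) with an interval of -0.13 to 0.35.

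Values of the oxysterol receptors and of RXRα were higher in knockdown livers without passing the main test. Nr1h3 had 909, 1008 and 925 normalized counts in scramble and 1061, 1008 and 1166 in knockdown livers, and scramble replicate 2 and knockdown replicate 2 were separated by 0.607 counts. Its log2 fold change was 0.19 (SE 0.0915, adjusted p = 0.246 by edgeR, interval -0.01 to 0.39). Nr1h2 had 411, 411 and 394 normalized counts in scramble and 381, 476 and 453 in knockdown livers, with a log2 fold change of 0.11 (SE 0.107, adjusted p = 0.578 by edgeR). The ratio of the LXRα gene to the LXRβ gene was 3.88 ± 0.204 on TPM in scramble and 4.13 ± 0.564 in knockdown livers (SD, n = 3), with a difference of 0.08 on log2 counts (exact permutation p = 0.5).

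Rxra had the highest counts of the set, 5219, 6284 and 5414 in scramble and 7144, 7685 and 6790 in knockdown livers, without overlap. Its log2 fold change was 0.35 (SE 0.105, adjusted p = 0.0686 by edgeR) with an interval of 0.12 to 0.58, which is 128% of the scramble level. It was called in 4 of 15 alternatives, among them DESeq2 (adjusted p = 0.0334) and the fit without knockdown replicate 3 (adjusted p = 0.0426). Of 20 dimer partners, chaperones and coregulators of these receptors, 0 passed the test by edgeR or DESeq2, with log2 fold changes from -0.34 to 0.42. At an unadjusted p under 0.05 by edgeR there were 4, where 23.4% of all genes tested had such a p. With library sizes from the spike-ins 3 were called higher.

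**Figure D3:**
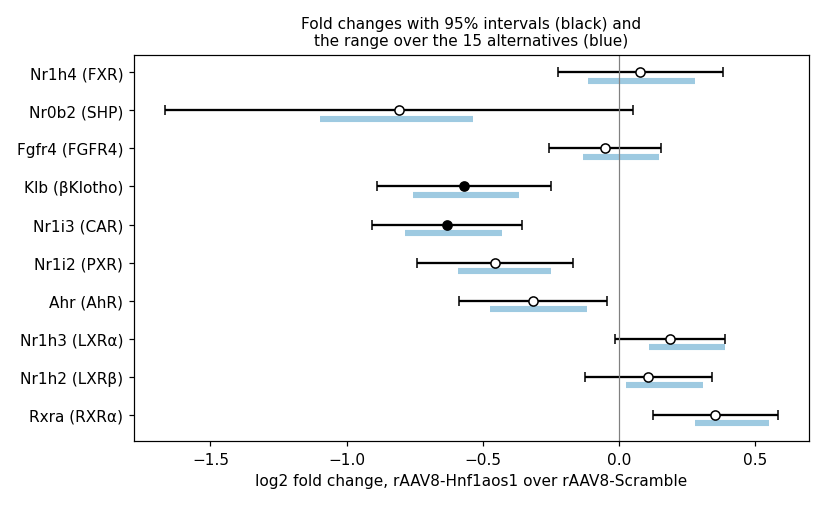
Log2 fold change of the 10 genes (x axis, rAAV8-Hnf1aos1 over rAAV8-Scramble) from edgeR with 95% intervals in black, filled where the adjusted p was under 0.05, and in blue the lowest to highest log2 fold change over 15 alternative settings. Nr1i3 (-0.63) and Klb (-0.57) are the filled points, the intervals of Nr1i2, Ahr and Rxra also leave out 0 without an adjusted p under the threshold, and the Nr0b2 interval is the widest, from -1.67 to 0.05.

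LXR targets passed the test in both directions. Of 11 tested, 2 rose and 2 fell, where 6.32% of all genes tested were called in either direction. Their median log2 fold change was -0.21. Abca1, the cholesterol efflux transporter, rose from 10143, 9316 and 9134 normalized counts in scramble to 14718, 14526 and 12466 in knockdown livers (log2 fold change 0.54, SE 0.106, adjusted p = 0.0154 by edgeR). Lpl, the lipoprotein lipase gene, rose from a mean of 350 to 506 normalized counts (log2 fold change 0.53, adjusted p = 0.0172 by edgeR).

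The LXR targets that fell were Srebf1 and Scd1. Srebf1, the lipogenic transcription factor gene, had 3641, 4035 and 4396 normalized counts in scramble and 2866, 2519 and 2801 in knockdown livers, without overlap (log2 fold change -0.56, SE 0.101, adjusted p = 0.0111 by edgeR). Scd1, the stearoyl-CoA desaturase gene, had a log2 fold change of -0.87 (SE 0.154, adjusted p = 0.0111 by edgeR), from a mean of 299769 to 164344 normalized counts. The study had selected Srebf1, Scd1, Abca1 and Lpl from these libraries, so this split is not independent evidence of a direction. By RT-qPCR the paper also reports Srebf1 lower and Abca1 and Lpl higher after knockdown, although its abstract names ABCA1 as downregulated. The paper does not say whether the RT-qPCR livers were the sequenced ones. With 1 library left out, Srebf1 and Scd1 were called in 4 of 6 fits each, and Abca1 and Lpl in 3 of 6 each. Without scramble replicate 3, or without knockdown replicate 2, 0 of the 11 LXR targets were called. DESeq2 with all libraries called 2 higher and 4 lower, where it called 7.8% of all genes.

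Transcription factors known to act on the promoters of these receptors were 13, all tested, of which 1 rose and 0 fell. At an unadjusted p under 0.05 there were 7, where 23.4% of all genes tested had such a p. Foxa3, a forkhead factor of hepatocytes, had 793, 924 and 869 normalized counts in scramble and 1142, 1611 and 1095 in knockdown livers (log2 fold change 0.57, SE 0.143, adjusted p = 0.0445 by edgeR), and was called in 1 of 6 fits with a library left out. DESeq2 called 5 of the 13 higher, where it called 7.8% of all genes in either direction. Onecut1 and Hnf4a were named after their values were seen. Onecut1 had 340, 505 and 179 normalized counts in scramble and 1473, 1117 and 2071 in knockdown livers, the largest log2 fold change of the list at 2.19 (SE 0.462, adjusted p = 0.0704 by edgeR). Hnf4a, the master hepatocyte nuclear receptor, had a log2 fold change of -0.08 (SE 0.122, adjusted p = 0.724 by edgeR). Over the 9 lists of targets, partners and regulators together, 100 of 110 genes were tested, 4 rose and 3 fell, which is near the share over all genes (6.32%).

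**Figure D4:**
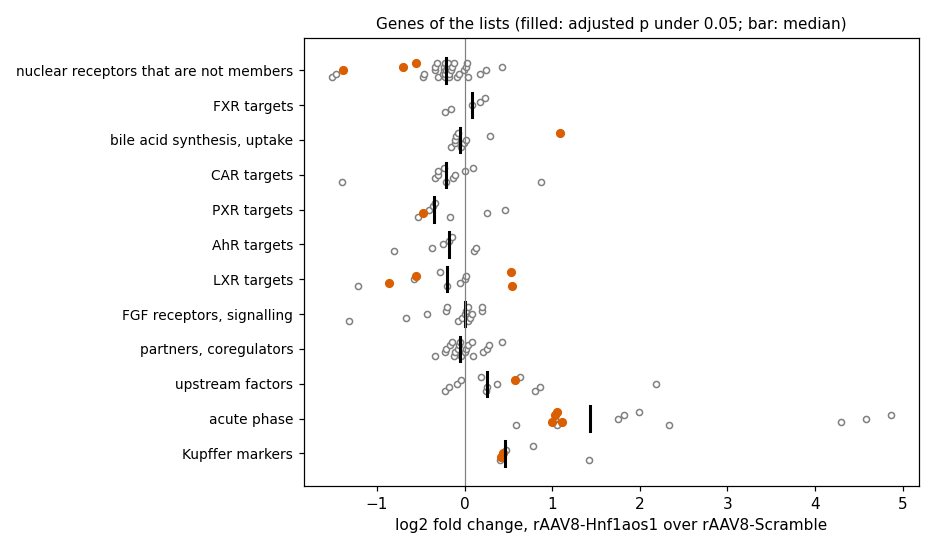
Log2 fold change (x axis, rAAV8-Hnf1aos1 over rAAV8-Scramble) of each tested gene in 12 lists, 1 row per list, filled where the adjusted p by edgeR was under 0.05, with a bar at the median of each list. In the main fit, medians lie at -0.35 for PXR targets and -0.21 for CAR targets, at 0.08 for FXR targets, and at 1.43 for acute phase genes. With library sizes from the spike-ins, the PXR and CAR medians were -0.15 and -0.0074. Points are scattered vertically only for legibility.

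The nuclear receptor family was also read as a whole. Of 49 mouse nuclear receptor genes, 41 were tested, 0 rose and 4 fell, where 3.23% of all genes tested were called lower. Of the 41 log2 fold changes, 31 were below 0, with a median of -0.21. With library sizes from the spike-ins, however, 22 of 41 were below 0 and the median was -0.01. In that scaling, too, 31 of 41 lay below the median of all genes. Over all genes tested, 8172 of 16327 were below 0. Of the 34 tested receptors outside the set described here, 28 were below 0, and 3 fell. Among these were Esrrg, an orphan receptor of oxidative metabolism (97.2 ± 36.4 to 37.1 ± 7.41 normalized counts, SD, n = 3), and Nr6a1, the germ cell nuclear factor (586 ± 38.0 to 399 ± 54.2). Their log2 fold changes were -1.38 and -0.55, with adjusted p of 0.0280 and 0.0203 by edgeR. Nr1h4, Nr1h3, Nr1h2 and Rxra were 4 of the 10 family members above 0.

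Levels between genes were compared on the deposited TPM, which is per transcript length. In scramble livers the order was Rxra (129 TPM), Nr1h4 (101), Nr1h3 (55.9), Nr0b2 (52.7), Nr1i2 (51.8), Nr1i3 (34.3), Ahr (33.9), Fgfr4 (22.4), Klb (19.3) and Nr1h2 (14.4). Ranges of the neighbours Nr1h3 and Nr0b2, Nr0b2 and Nr1i2, and Nr1i3 and Ahr overlapped, and the other neighbours were apart. In knockdown livers Rxra (156 TPM), Nr1h4 (101) and Nr1h3 (60.4) kept the first 3 places, followed by Nr1i2 (35.7), Nr0b2 (28.4), Ahr (25.8), Nr1i3 (20.97), Fgfr4 (20.5), Nr1h2 (14.7) and Klb (12.3). There the neighbours from Nr1i2 to Fgfr4 overlapped, as did Nr1h2 and Klb. Klb thus stood above Nr1h2 in all 3 scramble libraries and below it in 2 of 3 knockdown libraries.

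**Figure D5:**
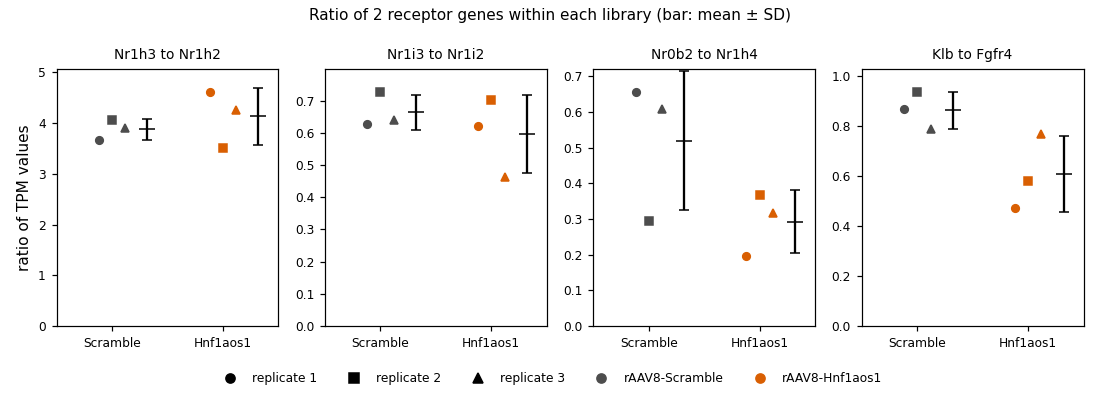
Ratio of the TPM values of 2 genes within each liver library (y axis, from 0) for 4 pairs, with marker shape for the replicate number and the mean ± SD of 3 libraries beside each group. Klb to Fgfr4 is the only pair without overlap, at 0.863 ± 0.0744 in scramble and 0.608 ± 0.150 in knockdown livers.

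The spread between mice, from 3 libraries per group and with no test of a difference, is given as a description. The median coefficient of variation of the 10 genes was 5.86% in scramble and 18.9% in knockdown livers, against 11.4% and 12.8% for all genes tested. It was higher in the knockdown group for 8 of the 10 genes, the exceptions being Nr0b2 and Rxra. For Nr1i3 it was 3.44% and 18.7%, for Klb 10.1% and 21.5%, and for Nr1h4 6.13% and 21.4%.

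Among 12912 genes with an average log2 CPM of at least 1, those most like Nr1i3 over the 6 libraries were Hps5, H3c3 and Gm51915 (Pearson r of log2 CPM 0.999, 0.997 and 0.992), those most like Klb were Tmem106b, Ddb2 and Agmo (0.997, 0.995 and 0.995), and those most like Nr0b2 were Gmeb2, Zfp335 and Recql4 (0.988, 0.981 and 0.980). With 6 libraries in 2 groups and that many genes, values this high are a description of shared libraries only: 58 genes reached 0.95 for Nr1i3, 138 for Klb and 31 for Nr0b2.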

How the data were processed

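Liver RNA-seq of 6 mice was used, grouped by the sample labels. The authors trimmed reads with Trimmomatic 0.39, aligned them with STAR 2.7.3a and counted them with subread featureCounts 2.0.1. Their methods name GRCm38 and a stranded poly(A) kit, while the labels name GRCm39 and depletion of ribosomal RNA, and the annotation and strand setting are not given in the sources used here. Of the symbols in the table, 91.9% are in RefSeq for GRCm38.p6 and 71.0% in GENCODE M21. The deposited raw counts are whole numbers without normalization, and the authors also deposited TPM, used here for levels and ratios. Their normalized counts and the table of their own fold changes and p-values were not used.

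The 92 ERCC spike-in rows (1.18% to 1.52% of counts) were left out. In R 4.3.3, edgeR 4.0.16 scaled the raw counts by TMM, filtered them with filterByExpr and compared groups with robust quasi-likelihood fits over all 16327 genes, with Benjamini-Hochberg adjustment and a threshold of 0.05. The shared biological coefficient of variation was 13.9%. Normalized counts are scaled to the mean library size. Ratios were compared with two-sided exact permutation tests (scipy 1.17.1). Alternatives were DESeq2 1.42.0, limma 3.58.1 on voom weights and on log2(TPM + 0.1), other library sizes and filters, the replicate number as a block, and each library left out. Scripts were tested on simulated counts.

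Members and lists were chosen with earlier results of these data known. Genes were named by rule: the 10 members, Hnf1aos1, called genes and the best known targets of each list, and the 3 most alike of the called or most changed members. Some genes of the rule are not reported here. A chi-square test between libraries of a group gave 7.73 to 31.9 per gene, far above the sampling noise of a repeated library. The p-values of the fits set group differences against the spread between these mice.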

Additional observations from a re-analysis of the deposited data

How the results depend on the processing

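Over 15 alternatives, Nr0b2, Nr1i2, Nr1i3, Nr1h3, Nr1h2, Rxra, Ahr, Klb and Hnf1aos1 kept their direction, and the cause of the differences between settings was not tested. Values below are log2 fold changes unless said otherwise. By DESeq2, Nr0b2 (-0.81), Nr1i2 (-0.46), Rxra (0.35) and Hnf1aos1 (-0.75) passed the threshold, 5 of the 10 receptor genes against 2 in the main test, and 13 genes of the 9 lists against 7. With no filter on low counts, Nr1i2 (-0.46), Rxra (0.35), Ahr (-0.32) and Hnf1aos1 (-0.74) passed, 5 of the 10 genes, 15 genes of the lists and 1902 of all genes against 1032. Nr1i2 also passed with library totals (-0.53), and Hnf1aos1 with limma's voom (-0.77). With library sizes from the spike-ins, Nr1h3 (0.39) and Rxra (0.55) passed, Klb (-0.37) did not, Fgfr4 turned to 0.15, 20 list genes passed and 3394 of all genes, of which 89.3% were higher against 48.9% in the main test. Library totals gave 30.4% higher. On TPM with limma, Nr1h4 turned to -0.0177 and 594 of all genes passed.

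Replicate numbers are shared between groups, and the labels do not say whether they pair the mice. Samples of the same number did not deviate together (correlations of -0.0226, 0.0231 and 0.00321). These values show no strong shared deviation but cannot settle whether the mice were paired. With the replicate number as a block, 1 of the 10 genes passed, Klb (-0.59, adjusted p = 0.0746 by edgeR) did not, and Hnf1aos1 (-0.77) did.

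With 1 library left out, 0 to 4 of the 10 genes passed, 1 to 13 list genes and 103 (without scramble replicate 3) to 1881 (without knockdown replicate 3) of all genes. Ranges were -0.11 to 0.20 for Nr1h4, -1.10 to -0.54 for Nr0b2, -0.59 to -0.33 for Nr1i2, -0.79 to -0.54 for Nr1i3, 0.30 to 0.43 for Rxra, -0.76 to -0.48 for Klb and -1.01 to -0.60 for Hnf1aos1. The difference in the log2 ratio of Nr1h3 to Nr1h2 ran from -0.00049 to 0.20. With 3 mice per group, no exact permutation test could reach the threshold.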
